A study of Saccharomyces cerevisiae with 23 samples.

Results

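The 33 genes described in this section encode cytosolic and mitochondrial heat shock proteins, chaperones and cochaperones of budding yeast (Saccharomyces cerevisiae). They were chosen by standard gene name, and each name was matched to the systematic gene name of a probe on 2-colour Agilent expression arrays. All 33 were found among the 6256 genes on the array, and all 33 were among the 5606 genes tested. The cultures were the haploid laboratory strain BY4741a carrying pdr5Δ, a deletion of the gene for the drug pump Pdr5 of the plasma membrane. In the order used below, the groups were 5 µg/mL of a statin with 1 mM CuSO4 (3 biological samples), the statin with 2 mM ZnSO4 (2 samples), the statin alone (3), 1 mM CuSO4 alone (3), 2 mM ZnSO4 alone (3) and untreated cultures (3). Replicate 1 of the statin with ZnSO4 was not analysed here, and the labels do not name the statin. Every culture, untreated ones included, was in synthetic complete medium with 2% glucose, 0.25 mM EDTA (a chelator of divalent metals) and 0.1% DMSO. Cultures of the statin groups had been grown with the statin beforehand from an OD600 of 0.09, against 0.01 for the others. All were resuspended at 0.1 for the treatment, and they were collected near 0.4 with the statin and near 0.8 without it. The statin and these densities changed together, so their parts in any difference between cultures with and without the statin cannot be told apart.

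Chaperones bind unfolded or aggregating proteins and help them to fold. Hsp70 works with J proteins, which deliver clients and start its ATP cycle, and with exchange factors, which end that cycle. Hsp90 takes partly folded clients from Hsp70 and is steered by cochaperones. Small heat shock proteins hold aggregates in a state from which disaggregases can draw out single chains. In yeast many of these genes are driven by the heat shock factor Hsf1, and some also by Msn2 and Msn4, the factors of the general stress response. A statin blocks HMG-CoA reductase, and with it the supply of mevalonate from which sterols and isoprenoids are built.

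Values are log2 ratios of a sample (Cy3) over a reference pooled from RNA of all 6 conditions (Cy5), so they rank samples for a gene and say nothing of one gene's level against another's. A difference between groups is a difference of such ratios, and ± stands for limma's standard error except where SD is written. A gene was called when limma's adjusted p (Benjamini-Hochberg over the 5606 genes) was under 0.05. On all 23 arrays, both spots of each member's probe were well above background, and no member had a missing value. Sequence-similar pairs, such as SSB1 with SSB2, SSA1 with SSA2, and HSP82 with HSC82, may share signal on their probes. An array reports a gene's share of the RNA of a whole culture, so fewer cells with a transcript and less transcript per cell cannot be told apart.

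The deleted gene PDR5 was well above background on 0 of the 23 arrays, and none of its signals passed percentile 6.7 of the probes of an array. Of the marker genes deleted in BY4741, MET17 passed the background limit on 15 arrays, URA3 on 6, LEU2 on 2 and HIS3 on 0, with signals up to percentile 10.2. The 6 a-cell genes passed that limit on 16 (AGA2) to 23 arrays, at percentile 7 (AGA2) to 74 (STE6). The 4 alpha-cell genes passed it on 14 to 23 arrays, at percentile 1.1 to 29.9, so the sets overlapped in signal, and STE2 and STE6 alone of the a-cell genes lay above all alpha-cell signals. The 6 biological samples with duplicate arrays gave members within an SD of 0.05 to 0.07 of the log2 difference between the duplicates. Replicate numbers coincide with 3 scans, and the third had the fewest spots well above background, 77.1 to 89.9%, against at least 95.7% on the others. Its median sample signals were nonetheless higher, at 1613 to 2999, against 913.5 to 1565.5. The lowest correlation between arrays of different samples was r = -0.564; the direction of the ratios was not turned, since the dyes are given by the labels.

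The median range of group means was 1.12 over the 33 members, and 0.61 over all tested genes. The statin group held the highest mean for 19 members, CuSO4 for 9 and statin with CuSO4 for 5. The lowest mean was in ZnSO4 for 15 members, in statin with ZnSO4 for 5, in untreated cultures for 5, in CuSO4 for 4 and in statin for 4. Over the 33 members, the sample medians were 0.27, -0.06 and 0.18 in statin with CuSO4, -0.23 and 0.00 in statin with ZnSO4, and 0.23, 0.05 and 0.35 in statin. They were -0.10, -0.21 and -0.21 in CuSO4, -0.72, -0.44 and -0.51 in ZnSO4, and -0.28, -0.23 and -0.26 in untreated cultures. The statin, CuSO4 and statin with CuSO4 samples were all above the 3 untreated ones, and the ZnSO4 samples were all below them. Over all genes every sample median lay between -0.02 and 0.00.

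**Figure D1:**
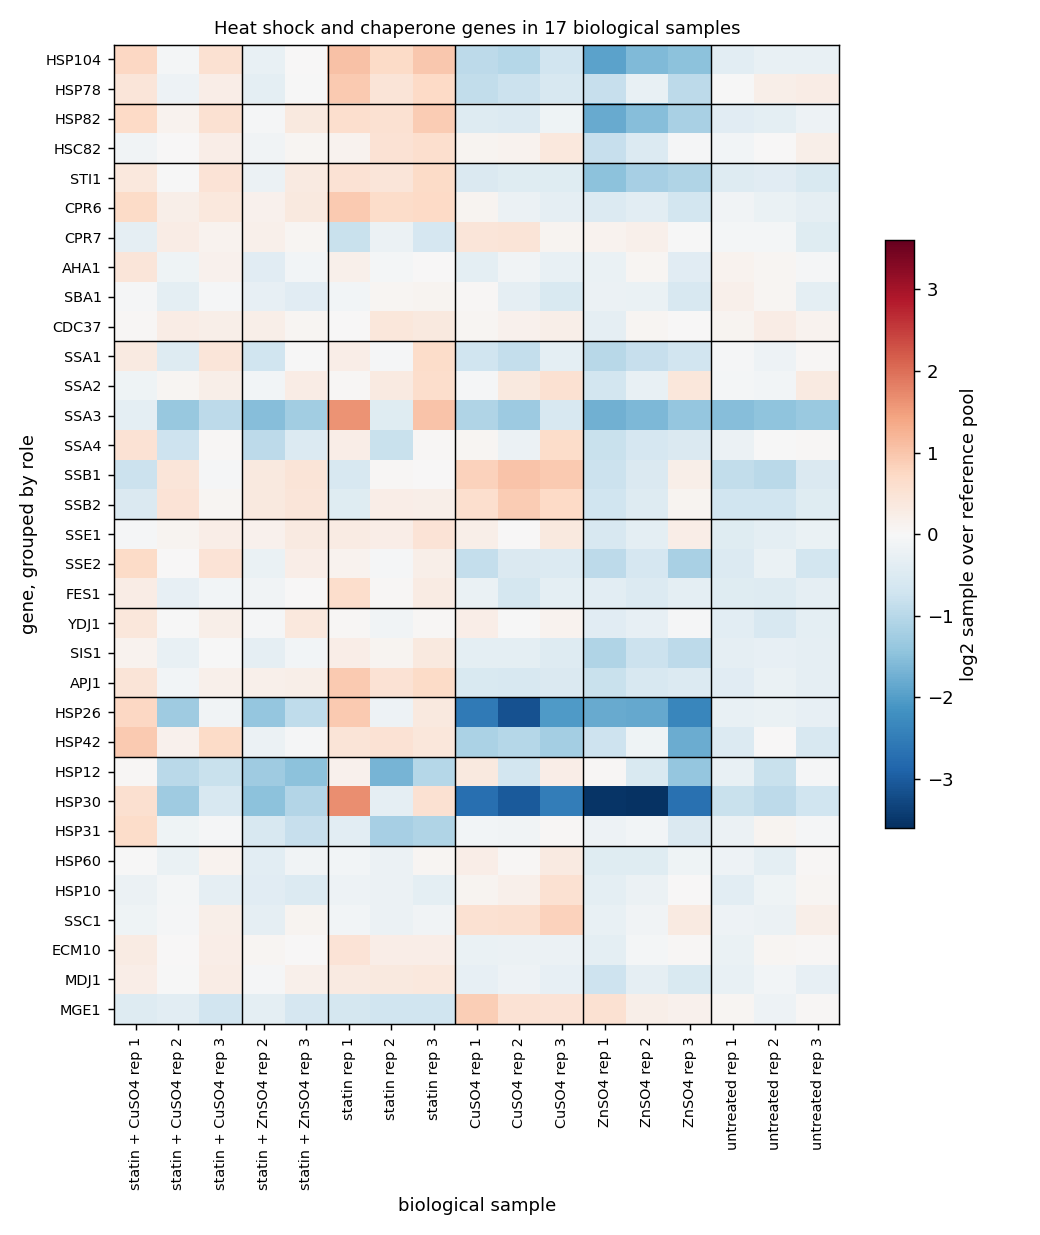
Log2 ratio of sample over reference pool for the 33 members (rows, grouped by role) in the 17 biological samples (columns, by group). Red is above and blue below the pool. The rows of HSP30 and HSP26 are darkest blue in the CuSO4 and ZnSO4 columns, down to -3.57 and -3.14, and the SSA3 row is red in 2 of the 3 statin columns.

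Against untreated cultures, the statin group had 16 members called higher and 2 lower, where 18% of all tested genes were called higher and 18.8% lower. The median difference was 0.55 over members and -0.01 over all genes. Calls reached both disaggregases, all 3 Hsp110 and exchange factor genes and all 3 cytosolic J proteins, but 1 of 6 cytosolic Hsp70 genes. CuSO4 alone had 8 members higher and 4 lower, beside 18% and 16.6% of all genes, with a median of 0.00 over members. These shares lie near those of all genes. SSB1, SSB2, SSC1, MGE1, YDJ1, CPR7, SSE1 and HSP10 rose, and HSP26, HSP30, HSP78 and HSP104 fell. ZnSO4 alone had 0 members higher and 8 lower, beside 8.81% and 7.78% of all genes, with a median of -0.26. By limma's unadjusted p under 0.05, 13 members differed with ZnSO4. With the replicate number as a block there were 11 calls, 1 higher (MGE1, 0.33, adjusted p = 0.0416) and 10 lower, with CDC37 (-0.24, adjusted p = 0.0444) and HSC82 added. The members that fell with ZnSO4 were HSP30, HSP26, HSP104, HSP82, HSP78, SSA1, STI1 and SIS1. These 3 comparisons share the untreated samples.

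**Figure D2:**
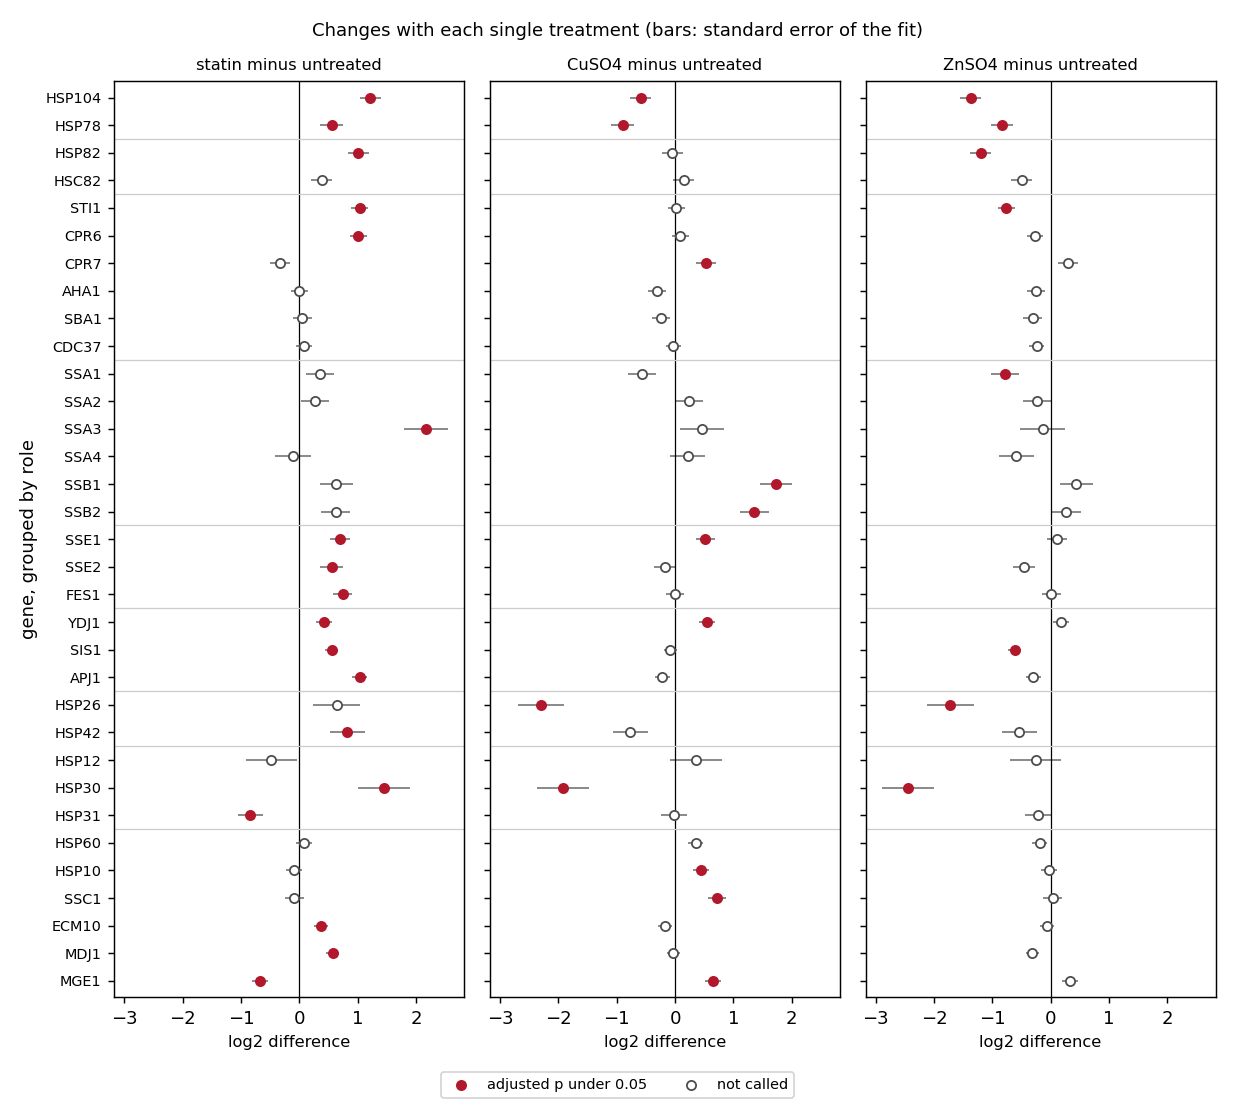
Log2 difference of each member in statin, CuSO4 and ZnSO4 cultures, each minus untreated cultures; bars are standard errors of the fit, and filled points have an adjusted p under 0.05. Filled points lie mostly right of 0 with the statin (16 higher, 2 lower), on both sides with CuSO4 (8 higher, 4 lower) and left of 0 with ZnSO4 (0 higher, 8 lower).

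HSP104, the disaggregase that pulls proteins out of aggregates, rose with the statin and fell with both metals. HSP104 stood at 0.75, -0.06 and 0.56 in statin with CuSO4, -0.27 and 0.00 in statin with ZnSO4 and 1.06, 0.70 and 0.97 in statin. Without the statin, HSP104 was at -0.94, -1.04 and -0.69 in CuSO4, -1.92, -1.60 and -1.49 in ZnSO4 and -0.39, -0.26 and -0.26 in untreated cultures. The 3 statin values were above and the CuSO4 and ZnSO4 values below every untreated value, with no overlap. Its differences from untreated cultures were 1.21 ± 0.18, adjusted p = 1.04e-04 with the statin, -0.59 ± 0.18, adjusted p = 0.0208 with CuSO4 and -1.37 ± 0.18, adjusted p = 1.25e-04 with ZnSO4, a 2.58-fold lower ratio. The CuSO4 call was lost without CuSO4 replicates 1 or 2 or untreated replicates 2 or 3 (-0.56 to -0.51, adjusted p = 0.0563 to 0.0768). On top of the statin, ZnSO4 lowered it (-1.05 ± 0.20, adjusted p = 0.00183), and the difference with CuSO4 was -0.49 ± 0.18, adjusted p = 0.0762. Even so, HSP104 was 2.89-fold higher in statin with ZnSO4 than in ZnSO4 alone (1.53 ± 0.20, adjusted p = 6.75e-05) and 2.47-fold higher in statin with CuSO4 than in CuSO4 alone (1.30 ± 0.18, adjusted p = 6.96e-05). HSP78, its relative in the mitochondrial matrix, ranged over 0.47 to 0.94 in statin, -0.88 to -0.58 in CuSO4, -0.94 to -0.26 in ZnSO4 and -0.02 to 0.28 in untreated cultures. It fell with CuSO4 (-0.90 ± 0.19, adjusted p = 0.00194) and with ZnSO4 (-0.84 ± 0.19, adjusted p = 0.00656), and rose with the statin (0.55 ± 0.19, adjusted p = 0.0346), a call that was lost without statin replicates 1 or 3 or untreated replicates 1 or 2 (0.43 to 0.58, adjusted p = 0.0596 to 0.13).

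HSP82 and HSC82 encode Hsp90; HSP82 is the more stress-inducible copy and HSC82 the one kept high in ordinary growth. HSP82 stood at 0.72, 0.13 and 0.56 in statin with CuSO4, -0.05 and 0.36 in statin with ZnSO4 and 0.61, 0.56 and 0.91 in statin. Without the statin, HSP82 was at -0.46, -0.49 and -0.15 in CuSO4, -1.82, -1.53 and -1.18 in ZnSO4 and -0.41, -0.35 and -0.18 in untreated cultures. ZnSO4 samples lay apart below all others, and CuSO4 samples overlapped the untreated ones. HSP82 rose with the statin (1.01 ± 0.18, adjusted p = 5.30e-04) and fell with ZnSO4 (-1.20 ± 0.18, adjusted p = 3.50e-04), and the difference with CuSO4 was -0.05 ± 0.18, adjusted p = 0.856. Between statin with ZnSO4 and ZnSO4 alone, HSP82 differed 3.17-fold (1.66 ± 0.20, adjusted p = 3.35e-05), and between statin with CuSO4 and CuSO4 alone by 0.83 ± 0.18, adjusted p = 0.00196. HSC82 ranged less, at -0.12, 0.01 and 0.23 in statin with CuSO4, -0.13 and 0.08 in statin with ZnSO4 and 0.14, 0.52 and 0.61 in statin. In cultures with no statin, HSC82 was at 0.09, 0.12 and 0.38 in CuSO4, -0.84, -0.50 and -0.04 in ZnSO4 and -0.10, 0.01 and 0.22 in untreated cultures. All 5 treated groups overlapped the untreated values, and HSC82 passed the test against untreated cultures with no single treatment: 0.38 ± 0.18, adjusted p = 0.11 with the statin and -0.50 ± 0.18, adjusted p = 0.072 with ZnSO4. With the replicate number as a block these became 0.38, adjusted p = 0.00584 and -0.50, adjusted p = 0.00231.

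**Figure D3:**
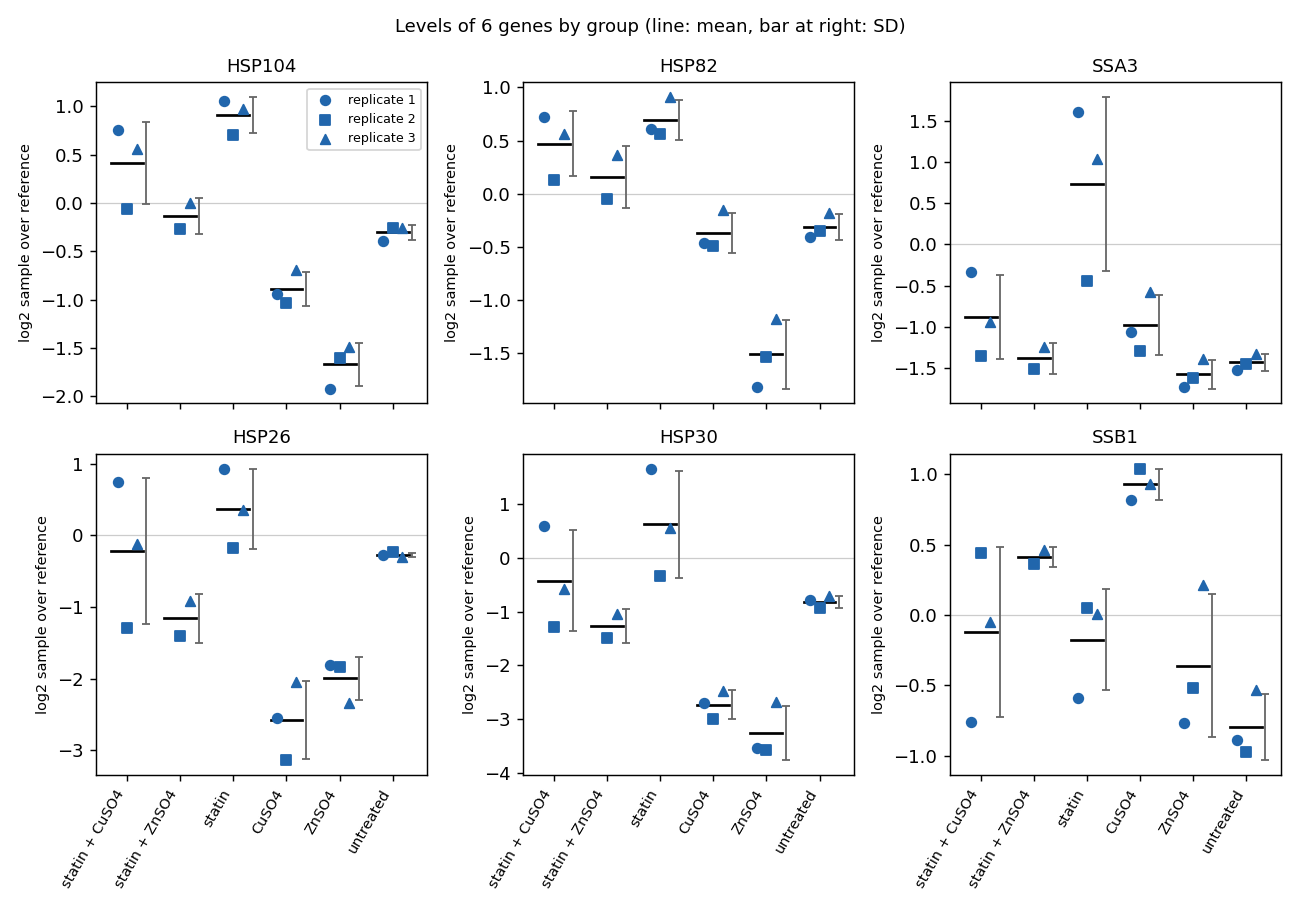
Log2 ratio of sample over reference pool for 6 members by group; points are biological samples, lines group means and bars at the right SDs. HSP104, HSP82, HSP26 and HSP30 have their lowest group means in CuSO4 or ZnSO4, SSA3 has its highest in statin with an SD of 1.06, and SSB1 is highest in CuSO4.

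Of the 6 Hsp90 cochaperones, STI1 and CPR6 rose with the statin, as HSP82 did, and CPR7 had its lowest group mean there. STI1 bridges Hsp70 and Hsp90. STI1 stood at 0.39, -0.02 and 0.50 in statin with CuSO4, -0.20 and 0.33 in statin with ZnSO4 and 0.51, 0.44 and 0.70 in statin. Without the statin, STI1 was at -0.51, -0.43 and -0.44 in CuSO4, -1.47, -1.20 and -1.08 in ZnSO4 and -0.47, -0.41 and -0.56 in untreated cultures. The statin samples were all above 0.4, and the ZnSO4 samples all below -1. STI1 rose with the statin (1.03 ± 0.15, adjusted p = 9.85e-05) and fell with ZnSO4 (-0.76 ± 0.15, adjusted p = 0.00283), and statin with ZnSO4 exceeded ZnSO4 by 1.31 ± 0.17, adjusted p = 6.12e-05. CPR6 and CPR7 are paralogous cyclophilins, peptidyl-prolyl isomerases that dock on Hsp90. CPR6 stood at 0.70, 0.21 and 0.38 in statin with CuSO4, 0.16 and 0.35 in statin with ZnSO4 and 0.95, 0.67 and 0.72 in statin, against -0.14, -0.23 and -0.33 in untreated cultures. In the metals alone, CPR6 was at 0.09, -0.21 and -0.31 with CuSO4 and -0.49, -0.37 and -0.65 with ZnSO4. The statin samples were above all samples without the statin but overlapped statin with CuSO4, and CPR6 rose with the statin (1.01 ± 0.14, adjusted p = 4.91e-05). ZnSO4 on top of the statin lowered CPR6 (-0.53 ± 0.16, adjusted p = 0.0242), a call lost without statin with ZnSO4 replicates 2 or 3 or statin replicate 1 (-0.62 to -0.43, adjusted p = 0.0657 to 0.179). CPR7 stood at -0.31, 0.27 and 0.13 in statin with CuSO4, 0.19 and 0.08 in statin with ZnSO4 and -0.80, -0.20 and -0.60 in statin. Without the statin, CPR7 was at 0.44, 0.46 and 0.09 in CuSO4, 0.13, 0.18 and -0.01 in ZnSO4 and -0.08, -0.08 and -0.44 in untreated cultures. Its lowest samples were thus 2 of the statin ones, in which CPR6 was at its highest. CPR7 rose with CuSO4 (0.53 ± 0.17, adjusted p = 0.0276), with CuSO4 on top of the statin (0.56 ± 0.17, adjusted p = 0.0358) and with ZnSO4 on top of the statin (0.67 ± 0.19, adjusted p = 0.0221). Those calls were lost, in that order, without CuSO4 replicates 1 or 2 or untreated replicate 3 (0.41 to 0.47, adjusted p = 0.094 to 0.117), without statin with CuSO4 replicates 2 or 3 or statin replicates 1 or 3 (0.43 to 0.53, adjusted p = 0.108 to 0.166) and without statin with ZnSO4 replicates 2 or 3 or statin replicates 1 or 3 (0.53 to 0.72, adjusted p = 0.0616 to 0.134). AHA1, which stimulates the ATPase of Hsp90, SBA1, the p23 cochaperone, and CDC37, which brings kinases to Hsp90, had no call against untreated cultures without the block, with differences between -0.31 and 0.08. AHA1 alone of these had a call elsewhere, in statin with CuSO4 against CuSO4 (0.40 ± 0.15, adjusted p = 0.0437), lost without statin with CuSO4 replicates 1 or 3, statin replicate 3, CuSO4 replicates 1 or 3, ZnSO4 replicate 1 or untreated replicates 1, 2 or 3 (0.25 to 0.40, adjusted p = 0.0502 to 0.213).

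Among the cytosolic Hsp70 genes, SSA3 was the member with the largest statin difference, and SSB1 and SSB2 those with the largest rise in CuSO4. SSA3 is a stress-inducible Hsp70 that is low in ordinary growth. SSA3 stood at -0.34, -1.36 and -0.94 in statin with CuSO4, -1.52 and -1.25 in statin with ZnSO4 and 1.61, -0.44 and 1.04 in statin. Without the statin, SSA3 was at -1.07, -1.30 and -0.58 in CuSO4, -1.73, -1.62 and -1.39 in ZnSO4 and -1.53, -1.45 and -1.33 in untreated cultures. All 3 statin samples were above every untreated, CuSO4 and ZnSO4 sample, though they differed among themselves by 2.05. The statin raised SSA3 4.51-fold (2.17 ± 0.38, adjusted p = 4.10e-04), and the value stayed between 1.73 and 2.76 with any 1 sample left out. The metals alone gave 0.46 ± 0.38, adjusted p = 0.379 with CuSO4 and -0.14 ± 0.38, adjusted p = 0.849 with ZnSO4. With the metals added to the statin, SSA3 fell relative to statin alone, with differences of -1.62 ± 0.38, adjusted p = 0.0075 for CuSO4 and -2.12 ± 0.42, adjusted p = 0.0023 for ZnSO4. Between statin with a metal and that metal alone, its differences were 0.10 ± 0.38, adjusted p = 0.845 for CuSO4 and 0.19 ± 0.42, adjusted p = 0.765 for ZnSO4. SSA4, the other inducible copy, stood at 0.52, -0.74 and 0.04 in statin with CuSO4, -0.95 and -0.49 in statin with ZnSO4 and 0.23, -0.79 and 0.05 in statin. Without the statin, SSA4 was at 0.06, -0.22 and 0.66 in CuSO4, -0.79, -0.61 and -0.53 in ZnSO4 and -0.20, -0.02 and 0.05 in untreated cultures. Its statin, CuSO4 and statin with CuSO4 samples overlapped the untreated ones. The ZnSO4 and statin with ZnSO4 samples were all below every untreated sample. SSA4 had no call without the block. Its differences from untreated cultures were -0.11 ± 0.30, adjusted p = 0.797 with the statin and -0.59 ± 0.30, adjusted p = 0.224 with ZnSO4.

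SSA1 and SSA2 are the Hsp70 genes expressed in ordinary growth. SSA1 stood at 0.32, -0.47 and 0.44 in statin with CuSO4, -0.73 and -0.02 in statin with ZnSO4 and 0.24, -0.04 and 0.66 in statin. Without the statin, SSA1 was at -0.71, -0.85 and -0.34 in CuSO4, -1.0, -0.82 and -0.69 in ZnSO4 and -0.04, -0.17 and 0.03 in untreated cultures. Every ZnSO4 and CuSO4 sample was below the untreated range. The ZnSO4 difference passed the test (-0.78 ± 0.24, adjusted p = 0.0364) but was lost without ZnSO4 replicates 1, 2 or 3 or untreated replicates 1, 2 or 3 (-0.85 to -0.70, adjusted p = 0.052 to 0.129). With CuSO4 it was -0.57 ± 0.24, adjusted p = 0.0762, and -0.57, adjusted p = 0.00753 with the replicate number as a block. SSA2 stood at -0.15, 0.08 and 0.22 in statin with CuSO4, -0.11 and 0.28 in statin with ZnSO4 and 0.04, 0.31 and 0.63 in statin. Without the statin, SSA2 was at -0.03, 0.34 and 0.55 in CuSO4, -0.67, -0.28 and 0.40 in ZnSO4 and -0.06, -0.10 and 0.31 in untreated cultures. SSA2 overlapped in all of these and had no call in any of the 10 comparisons without the block.

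SSB1 and SSB2 encode the Hsp70 that sits on ribosomes and binds new chains, and both rose with CuSO4. SSB1 stood at -0.76, 0.44 and -0.05 in statin with CuSO4, 0.36 and 0.46 in statin with ZnSO4 and -0.59, 0.05 and 0.01 in statin. Without the statin, SSB1 was at 0.82, 1.04 and 0.93 in CuSO4, -0.77, -0.52 and 0.21 in ZnSO4 and -0.89, -0.97 and -0.53 in untreated cultures. The 3 CuSO4 samples were above every other sample. SSB2 had -0.52, 0.49 and 0.06 in statin with CuSO4, 0.34 and 0.43 in statin with ZnSO4 and -0.44, 0.24 and 0.20 in statin. In the other groups, SSB2 had 0.60, 0.90 and 0.71 in CuSO4, -0.72, -0.47 and 0.10 in ZnSO4 and -0.73, -0.71 and -0.43 in untreated cultures, so its CuSO4 samples were again the highest. Against untreated cultures, CuSO4 raised SSB1 3.31-fold (1.73 ± 0.28, adjusted p = 2.06e-04) and SSB2 2.56-fold (1.36 ± 0.25, adjusted p = 5.65e-04), and both calls held with any 1 sample left out. In statin with CuSO4 they were lower than in CuSO4 alone, with differences of -1.05 ± 0.28, adjusted p = 0.00683 for SSB1 and -0.72 ± 0.25, adjusted p = 0.0263 for SSB2; the SSB2 call was lost without statin with CuSO4 replicates 1 or 3 or CuSO4 replicate 2 (-0.75 to -0.46, adjusted p = 0.0563 to 0.147). With the statin alone the differences from untreated cultures were 0.63 ± 0.28, adjusted p = 0.0898 for SSB1 and 0.62 ± 0.25, adjusted p = 0.0599 for SSB2, and with the replicate number as a block 0.63, adjusted p = 0.0274 and 0.62, adjusted p = 0.0108.

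All 3 genes of the Hsp110 and exchange factor group rose with the statin. SSE1, the main Hsp110 and an exchange factor of Hsp70, stood at -0.03, 0.09 and 0.24 in statin with CuSO4, 0.15 and 0.32 in statin with ZnSO4 and 0.29, 0.25 and 0.50 in statin. Without the statin, SSE1 was at 0.20, 0.00 and 0.36 in CuSO4, -0.58, -0.36 and 0.25 in ZnSO4 and -0.43, -0.34 and -0.25 in untreated cultures. Its statin and CuSO4 samples were all above the untreated ones, by 0.69 ± 0.17, adjusted p = 0.00499 with the statin and 0.52 ± 0.17, adjusted p = 0.025 with CuSO4, the second lost without CuSO4 replicates 1 or 3 or untreated replicates 1 or 2 (0.44 to 0.52, adjusted p = 0.0614 to 0.0889). SSE2, the stress-responsive paralog, stood at 0.68, 0.01 and 0.49 in statin with CuSO4, -0.23 and 0.23 in statin with ZnSO4 and 0.13, -0.04 and 0.21 in statin. Without the statin, SSE2 was at -0.85, -0.53 and -0.48 in CuSO4, -0.93, -0.61 and -1.18 in ZnSO4 and -0.48, -0.23 and -0.65 in untreated cultures. Each statin group was above its counterpart without the statin. The differences were 1.02 ± 0.19, adjusted p = 6.79e-04 in statin with CuSO4 against CuSO4, 0.91 ± 0.21, adjusted p = 0.00552 in statin with ZnSO4 against ZnSO4 and 0.55 ± 0.19, adjusted p = 0.0317 in statin against untreated cultures. The call in statin against untreated cultures was lost without statin replicates 1 or 3 or untreated replicates 1 or 3 (0.46 to 0.54, adjusted p = 0.0741 to 0.122), and that in statin with ZnSO4 against ZnSO4 without statin with ZnSO4 replicate 3 (0.68, adjusted p = 0.0988). FES1, another exchange factor of Hsp70, ranged over 0.04 to 0.63 in statin and -0.47 to -0.33 in untreated cultures, a rise of 0.74 ± 0.16, adjusted p = 0.0019.

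All 3 cytosolic J proteins rose with the statin as well. APJ1, a J protein related to YDJ1, stood at 0.47, -0.09 and 0.18 in statin with CuSO4, 0.18 and 0.20 in statin with ZnSO4 and 0.93, 0.51 and 0.69 in statin. Without the statin, APJ1 was at -0.54, -0.58 and -0.51 in CuSO4, -0.80, -0.59 and -0.50 in ZnSO4 and -0.42, -0.24 and -0.31 in untreated cultures. The statin samples were the 3 highest, and every sample without the statin was below -0.2. APJ1 rose 2.05-fold with the statin (1.03 ± 0.13, adjusted p = 2.93e-05) and had the smallest adjusted p of the 33 members there. Adding a metal to the statin lowered it, with differences of -0.52 ± 0.13, adjusted p = 0.0129 for CuSO4 and -0.52 ± 0.15, adjusted p = 0.0221 for ZnSO4. The CuSO4 call was lost without statin with CuSO4 replicate 2 or statin replicate 1 (-0.42 to -0.39, adjusted p = 0.0556 to 0.0732), and the ZnSO4 call without statin with ZnSO4 replicates 2 or 3 or statin replicate 1 (-0.53 to -0.41, adjusted p = 0.0944 to 0.108). SIS1, an essential J protein with a part in translation and in prion propagation, ranged over 0.10 to 0.36 in statin, -1.08 to -0.78 in ZnSO4 and -0.33 to -0.29 in untreated cultures. It rose with the statin (0.55 ± 0.11, adjusted p = 0.00162) and fell with ZnSO4 (-0.62 ± 0.11, adjusted p = 0.0017). YDJ1, the main general J protein of the cytosol, rose with CuSO4 (0.55 ± 0.14, adjusted p = 0.00599) and with the statin (0.42 ± 0.14, adjusted p = 0.027); the statin call was lost without statin replicates 1 or 3 or untreated replicate 2 (0.34 to 0.39, adjusted p = 0.0731 to 0.103).

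The small heat shock proteins HSP26 and HSP42 coat aggregates, and HSP26 had the widest swings with the metals together with HSP30. HSP26 stood at 0.74, -1.29 and -0.12 in statin with CuSO4, -1.40 and -0.92 in statin with ZnSO4 and 0.93, -0.18 and 0.35 in statin. Without the statin, HSP26 was at -2.55, -3.14 and -2.05 in CuSO4, -1.81, -1.84 and -2.34 in ZnSO4 and -0.28, -0.24 and -0.30 in untreated cultures. All samples with a metal alone were below -1.8, while the untreated ones were within 0.06 of each other. HSP26 was 4.94-fold lower with CuSO4 (-2.30 ± 0.40, adjusted p = 4.35e-04) and 3.3-fold lower with ZnSO4 (-1.72 ± 0.40, adjusted p = 0.00787). The statin difference was 0.64 ± 0.40, adjusted p = 0.227, although the groups did not overlap. In statin with CuSO4 it was 5.12-fold above CuSO4 alone (2.35 ± 0.40, adjusted p = 3.84e-04), with samples spread over 2.03. ZnSO4 on top of the statin lowered HSP26 (-1.53 ± 0.45, adjusted p = 0.0242), a call lost without statin with ZnSO4 replicates 2 or 3 or statin replicates 1 or 3 (-1.77 to -1.25, adjusted p = 0.0546 to 0.17). HSP42 stood at 0.95, 0.16 and 0.69 in statin with CuSO4, -0.20 and -0.05 in statin with ZnSO4 and 0.46, 0.52 and 0.42 in statin. Without the statin, HSP42 was at -1.14, -1.02 and -1.22 in CuSO4, -0.75, -0.15 and -1.78 in ZnSO4 and -0.48, 0.02 and -0.58 in untreated cultures. CuSO4 samples were below and statin samples above the untreated range, and ZnSO4 samples reached both into it and far below it. The CuSO4 difference of HSP42 was -0.77 ± 0.30, adjusted p = 0.0569, and -0.77, adjusted p = 0.0484 with the replicate number as a block. HSP42 was 3.31-fold higher in statin with CuSO4 than in CuSO4 (1.73 ± 0.30, adjusted p = 4.06e-04). Its statin call against untreated cultures (0.82 ± 0.30, adjusted p = 0.0425) was lost without statin with CuSO4 replicate 3, statin with ZnSO4 replicates 2 or 3, statin replicates 1, 2 or 3, CuSO4 replicates 1 or 2, ZnSO4 replicate 1 or untreated replicates 1 or 3 (0.70 to 0.84, adjusted p = 0.0505 to 0.138).

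HSP30, HSP31 and HSP12 are stress-induced proteins that are not classical folding chaperones. HSP30 is a plasma membrane protein that restrains the proton pump Pma1. HSP30 stood at 0.59, -1.28 and -0.58 in statin with CuSO4, -1.49 and -1.05 in statin with ZnSO4 and 1.66, -0.33 and 0.55 in statin. Without the statin, HSP30 was at -2.71, -3.01 and -2.48 in CuSO4, -3.54, -3.57 and -2.68 in ZnSO4 and -0.79, -0.94 and -0.72 in untreated cultures. CuSO4 and ZnSO4 samples were all below -2.4, and the 3 statin samples were all above the untreated ones. HSP30 was 5.45-fold lower with ZnSO4 (-2.45 ± 0.45, adjusted p = 0.0017) and 3.77-fold lower with CuSO4 (-1.92 ± 0.45, adjusted p = 0.00425). It was 2.72-fold higher with the statin (1.45 ± 0.45, adjusted p = 0.0211), a call lost without statin replicate 1 or untreated replicates 1 or 2 (0.93 to 1.46, adjusted p = 0.0501 to 0.111). Statin with a metal exceeded that metal alone by 2.31 ± 0.45, adjusted p = 0.001 for CuSO4 and 1.99 ± 0.51, adjusted p = 0.00983 for ZnSO4, the second lost without statin with ZnSO4 replicate 3 (1.78, adjusted p = 0.0934). ZnSO4 on top of the statin lowered HSP30 (-1.90 ± 0.51, adjusted p = 0.0146), a call lost without statin with ZnSO4 replicates 2 or 3 or statin replicate 1 (-2.12 to -1.38, adjusted p = 0.0556 to 0.111). The median of 21 general stress genes was low in the same samples, at -0.59, -0.65 and -0.33 in CuSO4 and -0.77, -0.89 and -1.20 in ZnSO4, beside -0.06, -0.02 and 0.20 in untreated cultures, and its part in the HSP30 and HSP26 values was not tested. HSP31 is a glyoxalase-type stress protein of the DJ-1 family. HSP31 stood at 0.66, -0.16 and -0.04 in statin with CuSO4, -0.59 and -0.82 in statin with ZnSO4 and -0.37, -1.19 and -1.09 in statin. Without the statin, HSP31 was at -0.10, -0.14 and 0.04 in CuSO4, -0.18, -0.09 and -0.51 in ZnSO4 and -0.20, 0.10 and -0.03 in untreated cultures. The statin samples were below every untreated sample, and the statin with CuSO4 samples above every statin sample. HSP31 fell with the statin (-0.84 ± 0.22, adjusted p = 0.00736), one of 2 members called lower there, and rose when CuSO4 was added to it (1.04 ± 0.22, adjusted p = 0.00353). In a fit of those groups alone, the rise gave 1.04, adjusted p = 0.0619. HSP12, a small membrane-associated stress protein, ranged over -1.67 to 0.15 in the statin groups and -1.39 to 0.36 in the others, and it had no call in any comparison.

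Of the 6 members with a purely mitochondrial role besides HSP78, ECM10 and MDJ1 rose with the statin and MGE1 fell, while SSC1, HSP10 and MGE1 rose with CuSO4. SSC1 is the main Hsp70 of the matrix and ECM10 its less abundant paralog. SSC1 stood at -0.16, -0.05 and 0.20 in statin with CuSO4, -0.31 and 0.09 in statin with ZnSO4 and -0.11, -0.21 and -0.13 in statin. Without the statin, SSC1 was at 0.56, 0.58 and 0.82 in CuSO4, -0.27, -0.13 and 0.31 in ZnSO4 and -0.19, -0.20 and 0.20 in untreated cultures. CuSO4 samples were the 3 highest, and SSC1 rose with CuSO4 (0.72 ± 0.16, adjusted p = 0.003) and was lower in statin with CuSO4 than in CuSO4 (-0.66 ± 0.16, adjusted p = 0.00433). ECM10 stood at 0.29, 0.01 and 0.23 in statin with CuSO4, 0.07 and 0.01 in statin with ZnSO4 and 0.50, 0.23 and 0.25 in statin. Without the statin, ECM10 was at -0.23, -0.21 and -0.21 in CuSO4, -0.34, -0.06 and 0.04 in ZnSO4 and -0.25, 0.08 and 0.04 in untreated cultures. Its highest value was in a statin sample, and with the statin it rose by 0.37 ± 0.12, adjusted p = 0.028, a call lost without statin replicate 1 or untreated replicate 1 (0.26 to 0.28, adjusted p = 0.117 to 0.138). MGE1, the exchange factor of SSC1, ranged over -0.73 to -0.34 in the 8 samples with the statin and -0.18 to 0.89 in the 9 without, with no overlap. MGE1 fell with the statin (-0.67 ± 0.14, adjusted p = 0.00141) and rose with CuSO4 (0.65 ± 0.14, adjusted p = 0.00169). In statin with CuSO4 it was 2.2-fold lower than in CuSO4 (-1.14 ± 0.14, adjusted p = 1.83e-05), and in statin with ZnSO4 it was lower than in ZnSO4, with a difference of -0.78 ± 0.15, adjusted p = 0.00178. MDJ1, the J protein of the matrix, went the other way and rose with the statin (0.57 ± 0.11, adjusted p = 0.00122). HSP10, the lid of the mitochondrial chaperonin, rose with CuSO4 (0.44 ± 0.14, adjusted p = 0.0225), a call lost without CuSO4 replicate 3 or untreated replicates 1 or 2 (0.31 to 0.44, adjusted p = 0.0578 to 0.114). HSP60, the barrel of that chaperonin, differed by 0.35 ± 0.13, adjusted p = 0.0516 with CuSO4, and by 0.35, adjusted p = 9.82e-04 with the replicate number as a block.

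The statin effect was also measured in the presence of each metal, with samples that do not enter the means of statin or untreated cultures. All comparisons share the variance of one fit, so their calls are not independent. Statin with CuSO4 against CuSO4 gave 15 members higher and 5 lower, beside 21.1% and 23.3% of all genes; with arrays centred on their median in place of loess the split was 12 and 8. Statin with ZnSO4 against ZnSO4 gave 10 higher and 1 lower, beside 14.4% and 14.2% of all genes. The medians over members were 0.22 and 0.43 in that order, and over all genes 0.01 in both. The first was 0.10 without statin with CuSO4 replicate 1 and 0.38 without its replicate 2, and the second 0.28 without statin with ZnSO4 replicate 3. With the replicate number as a block, FES1 (0.37, adjusted p = 0.0105) was also called higher and HSP60 (-0.23, adjusted p = 0.00977) lower in the first comparison. In the second the block added FES1 (0.42, adjusted p = 0.0164), HSC82 (0.32, adjusted p = 0.0346), SSA1 (0.46, adjusted p = 0.0483), SSB2 (0.59, adjusted p = 0.0345) and SSE1 (0.40, adjusted p = 0.033), all higher. All 10 members higher in statin with ZnSO4 against ZnSO4 were among the 16 higher in statin against untreated cultures, which is 100% of the first list and 62.5% of the second. They were HSP104, HSP82, STI1, CPR6, SSE2, YDJ1, SIS1, APJ1, HSP30 and MDJ1. Of these, the YDJ1 call with ZnSO4 present was lost without statin with CuSO4 replicate 3, statin with ZnSO4 replicate 3, statin replicates 1, 2 or 3, CuSO4 replicates 1, 2 or 3, ZnSO4 replicates 1 or 2 or untreated replicates 1, 2 or 3 (0.22 to 0.43, adjusted p = 0.0524 to 0.459), and the MDJ1 call without statin with ZnSO4 replicate 3 (0.52, adjusted p = 0.0508). For statin with CuSO4 against CuSO4, 12 members were shared, which is 80% of its 15 and 75% of the 16. The 3 that were not shared were HSP26, SSA1 and AHA1. Overlaps of these call lists over all tested genes were not counted, so whether such shares are particular to members was not tested. With CuSO4 present the SSA1 call was lost without statin with CuSO4 replicates 1 or 3 or CuSO4 replicates 1 or 2 (0.56 to 0.69, adjusted p = 0.0659 to 0.109), the SIS1 call without statin with CuSO4 replicates 1 or 3 or CuSO4 replicate 3 (0.26 to 0.33, adjusted p = 0.0685 to 0.114) and the ECM10 call without statin with CuSO4 replicates 1 or 3 (0.34 to 0.37, adjusted p = 0.0563 to 0.0685). The single member lower in statin with ZnSO4 against ZnSO4 was MGE1, which was also lower in both other statin comparisons. Members lower in statin with CuSO4 against CuSO4 were MGE1, SSB1, SSB2, SSC1 and HSP10, the last lost without statin with CuSO4 replicate 3 or CuSO4 replicate 3 (-0.42 to -0.35, adjusted p = 0.0505 to 0.0567). SSA3, with the largest statin difference against untreated cultures, had no call with or without the block in the presence of either metal.

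The series is about copper and zinc working against a statin, and the next comparisons ask what each metal did on top of the statin. Statin with ZnSO4 against statin gave 1 member higher and 8 lower, beside 11.7% and 10.3% of all genes, with a median of -0.37 over members. The members that fell were SSA3, HSP30, HSP26, HSP104, HSP78, CPR6, APJ1 and SIS1, and CPR7 rose. The HSP78 call was lost without statin with ZnSO4 replicate 2 (-0.73, adjusted p = 0.0956), and the SIS1 call without statin with ZnSO4 replicate 2 or statin replicates 1 or 3 (-0.44 to -0.32, adjusted p = 0.0565 to 0.211). The replicate block added HSC82 (-0.56, adjusted p = 0.00241), HSP82 (-0.57, adjusted p = 0.0126), SSA1 (-0.66, adjusted p = 0.0118) and STI1 (-0.50, adjusted p = 0.0263). Statin with CuSO4 against statin gave 2 higher (HSP31 and CPR7) and 2 lower (SSA3 and APJ1), beside 9.44% and 7.31% of all genes, so members were called about as often as all genes. The median over members was -0.15, and -0.07 without statin with CuSO4 replicate 2. With scale normalization between arrays the split was 1 higher and 2 lower. In a fit of those groups alone 0 of the 4 were called, with SSA3 at -1.62, adjusted p = 0.0968 and APJ1 at -0.52, adjusted p = 0.113. With the replicate number as a block statin with CuSO4 against statin had 8 members called, the added ones being HSP104 (-0.49, adjusted p = 0.0378), HSC82 (-0.38, adjusted p = 0.011), FES1 (-0.37, adjusted p = 0.0221) and CPR6 (-0.35, adjusted p = 0.0252). Its 3 statin with CuSO4 samples differed widely: HSP26 was at 0.74, -1.29 and -0.12, and HSP30 at 0.59, -1.28 and -0.58. The median of 21 general stress genes moved with them, at 0.51, -0.31 and 0.30 in statin with CuSO4, beside 0.35, -0.08 and 0.11 in statin, and its part in the member values was not tested. Without statin with CuSO4 replicate 1 the count was 9, and without replicate 2 it was 2; it was 2 without statin replicate 1 and 7 without statin replicate 2. For statin with ZnSO4 against statin the count was 2 without statin with ZnSO4 replicate 2, 5 without its replicate 3 and 3 without statin replicate 1.

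The interaction is the effect of a metal with the statin minus its effect without the statin. It tests whether the metal effect differed between cultures with and without the statin. Those cultures also differed in density, so the parts of the statin and the density cannot be told apart. For CuSO4 this interaction was called for 6 members, 2 higher and 4 lower, beside 8.12% and 10.3% of all genes. Members were thus called about as often as all genes. The split was 0 and 7 with median centring in place of loess, 0 and 4 with scale normalization between arrays, and 1 and 4 with the deposited value table. SSB1 was raised by CuSO4 alone but differed by 0.05 ± 0.28 when CuSO4 was added to the statin, an interaction of -1.68 ± 0.39, adjusted p = 0.00676. SSB2 gave -1.35 ± 0.35, adjusted p = 0.0128 and SSE1 -0.77 ± 0.24, adjusted p = 0.0328, also with a rise in CuSO4 alone. SSA3 gave -2.07 ± 0.54, adjusted p = 0.013, with a fall in statin with CuSO4 against statin and 0.46 ± 0.38 in CuSO4 alone. HSP26 gave 1.71 ± 0.57, adjusted p = 0.0493, since it was -2.30 ± 0.40 with CuSO4 alone and -0.59 ± 0.40 with CuSO4 on top of the statin. HSP31 gave 1.06 ± 0.31, adjusted p = 0.0258, with -0.02 ± 0.22 in CuSO4 alone. The HSP26 call was lost without statin with CuSO4 replicates 1 or 3, statin with ZnSO4 replicates 2 or 3, statin replicates 2 or 3, CuSO4 replicates 1 or 2, ZnSO4 replicates 1, 2 or 3 or untreated replicates 1, 2 or 3 (1.23 to 1.73, adjusted p = 0.0536 to 0.122), the HSP31 call without statin with CuSO4 replicate 1, statin replicates 2 or 3, CuSO4 replicates 1 or 2 or untreated replicates 2 or 3 (0.81 to 1.05, adjusted p = 0.0505 to 0.0676) and the SSE1 call without statin with CuSO4 replicate 1, statin replicate 3, CuSO4 replicates 1 or 3 or untreated replicates 1 or 2 (-0.77 to -0.69, adjusted p = 0.0626 to 0.0829). The calls for SSA3, SSB1 and SSB2 held with any 1 sample left out. With the replicate number as a block 12 members were called, the added ones being SSC1 (-0.57, adjusted p = 0.00722), HSC82 (-0.54, adjusted p = 0.0109), CPR6 (-0.44, adjusted p = 0.0424), HSP60 (-0.31, adjusted p = 0.0265), MGE1 (-0.47, adjusted p = 0.0389) and SSA2 (-0.51, adjusted p = 0.0408).

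For ZnSO4 the interaction was called for 0 members in limma's test, beside 0.66% of all genes higher and 0.375% lower. At an unadjusted p under 0.05 there were 2 members, SSA3 and HSP82, and 537 of all genes. The fall of HSP30 was -1.90 ± 0.51 with the statin and -2.45 ± 0.45 without, a difference of 0.55 ± 0.68, adjusted p = 0.907. HSP26 gave -1.53 ± 0.45 and -1.72 ± 0.40, a difference of 0.19 ± 0.61, adjusted p = 0.968, and HSP104 -1.05 ± 0.20 and -1.37 ± 0.18, a difference of 0.32 ± 0.27, adjusted p = 0.836. Standard errors of 0.27 to 0.68 on these leave room for sizeable differences in either direction. HSP82 had an interaction of 0.66 ± 0.27, adjusted p = 0.401. SSA3 had the largest value (-1.98 ± 0.57, adjusted p = 0.136), which was called without statin replicate 2 (-2.57, adjusted p = 0.0026). Of the 8 members lower with ZnSO4 alone and the 8 lower with ZnSO4 on top of the statin, 5 were shared, 62.5% of each list: HSP104, HSP26, HSP30, HSP78 and SIS1. For CuSO4, 1 higher member (CPR7) and 0 lower members were shared. The lists were those of CuSO4 alone (8 higher, 4 lower) and of CuSO4 on top of the statin (2 higher, 2 lower). Overlaps of the metal lists over all tested genes were not counted.

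**Figure D4:**
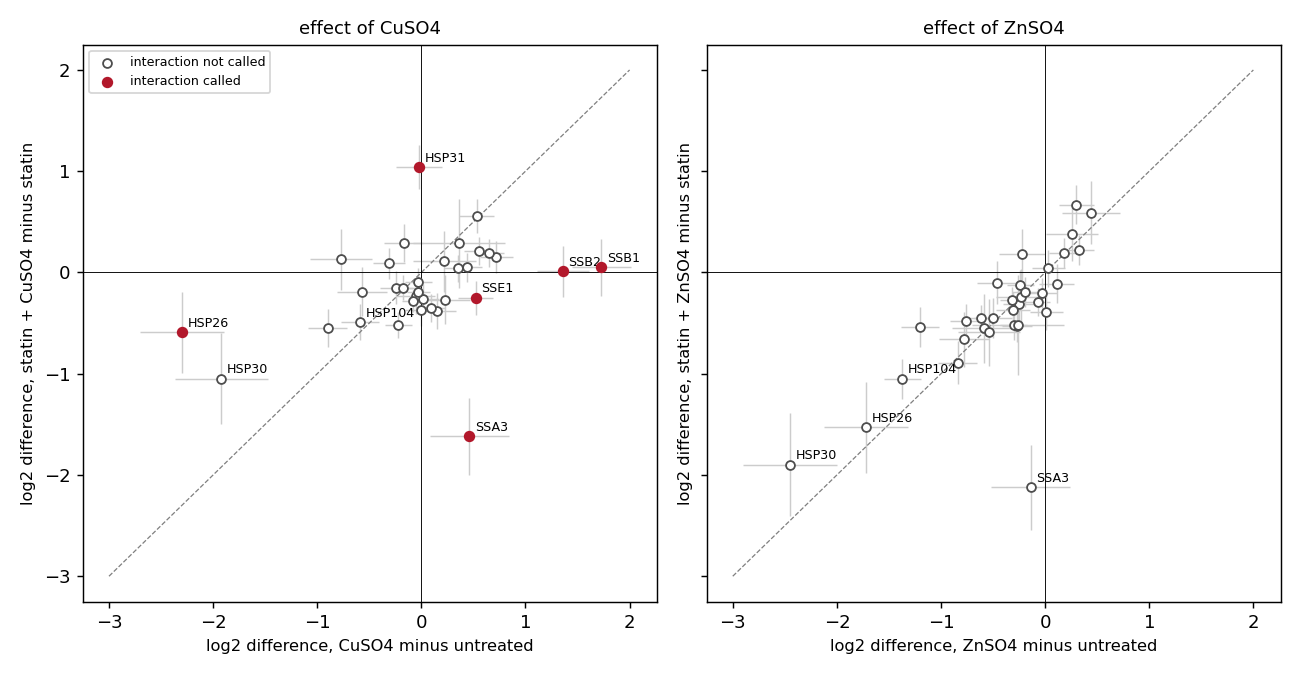
Effect of CuSO4 (left) and ZnSO4 (right) on each member with the statin (y axis) and without it (x axis), as log2 differences with standard errors; the dashed line marks equal effects, and filled points have a called interaction. In the CuSO4 panel 6 members are filled, with SSB1 and SSB2 near 0 on the y axis. In the ZnSO4 panel 0 are filled, and SSA3 lies farthest below the line.

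CuSO4 and ZnSO4 alone were also compared with each other, a comparison added after the values of both had been seen. It gave 10 members higher in CuSO4 and 0 lower, beside 9.03% and 6.69% of all genes, with a median of 0.38. Both Hsp90 genes were higher in CuSO4, HSP82 by 1.14 ± 0.18, adjusted p = 7.99e-04 and HSC82 by 0.65 ± 0.18, adjusted p = 0.0221, and so were STI1 (0.79 ± 0.15, adjusted p = 0.00286) and HSP104 (0.78 ± 0.18, adjusted p = 0.00856). The HSC82 call was lost without CuSO4 replicate 3 or ZnSO4 replicates 1 or 2 (0.46 to 0.63, adjusted p = 0.0749 to 0.109). SSB1 (1.29 ± 0.28, adjusted p = 0.00558) had the largest difference, followed by HSP82 and then SSB2 (1.1 ± 0.25, adjusted p = 0.007). SSC1, HSP60, SIS1 and HSP10 were the others. The SSC1 call was lost without ZnSO4 replicate 1 (0.57, adjusted p = 0.0509), the HSP60 call without ZnSO4 replicates 1 or 2 (0.49, adjusted p = 0.0531 to 0.0618) and the HSP10 call without CuSO4 replicate 3 or ZnSO4 replicates 1 or 2 (0.34 to 0.46, adjusted p = 0.0983 to 0.122). HSP26 and HSP30, low with both metals, differed between them by -0.58 ± 0.40, adjusted p = 0.365 and 0.53 ± 0.45, adjusted p = 0.476. Without ZnSO4 replicate 1 the count was 6. With the replicate number as a block it was 16, and the added members were CPR6 (0.36, adjusted p = 0.0233), MGE1 (0.32, adjusted p = 0.0447), SSA2 (0.47, adjusted p = 0.0127), SSA4 (0.81, adjusted p = 0.0287), SSE1 (0.41, adjusted p = 0.0222) and YDJ1 (0.38, adjusted p = 0.0158).

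Among regulators, transcripts of HSF1, the heat shock factor, differed from untreated cultures by 0.08 ± 0.14, adjusted p = 0.703 with the statin, -0.28 ± 0.14, adjusted p = 0.148 with CuSO4 and -0.05 ± 0.14, adjusted p = 0.86 with ZnSO4. HSF1 was called once, in statin with CuSO4 against CuSO4 (0.43 ± 0.14, adjusted p = 0.0228), and that call was lost without statin with CuSO4 replicates 1 or 3 or CuSO4 replicates 1 or 2 (0.31 to 0.40, adjusted p = 0.0679 to 0.116). MSN2 differed by 0.20 ± 0.10, adjusted p = 0.119 with the statin, -0.20 ± 0.10, adjusted p = 0.121 with CuSO4 and -0.22 ± 0.10, adjusted p = 0.155 with ZnSO4. MSN4, its paralog, fell with all 3 single treatments: -0.51 ± 0.12, adjusted p = 0.00358 with the statin, -0.47 ± 0.12, adjusted p = 0.00597 with CuSO4 and -0.61 ± 0.12, adjusted p = 0.00222 with ZnSO4. Of the 5 other Hsf1 targets, a list chosen with earlier results of these data known, 5 rose with the statin, where 18% of all genes did. The largest rises were in BTN2, which sorts aggregates (1.59 ± 0.17, adjusted p = 3.78e-06), MBF1, a transcriptional coactivator (0.90 ± 0.26, adjusted p = 0.0136), and the secreted glycoprotein HSP150 (0.84 ± 0.23, adjusted p = 0.0102). The MBF1 call was lost without statin replicate 1 or untreated replicate 3 (0.71 to 0.80, adjusted p = 0.0536 to 0.0711). With ZnSO4, 3 of the 5 fell, where 7.78% of all genes did: the polyubiquitin gene UBI4 (-0.93 ± 0.16, adjusted p = 9.81e-04), BTN2 (-0.60 ± 0.17, adjusted p = 0.0222) and CUR1, a relative of BTN2 (-0.54 ± 0.11, adjusted p = 0.00401). The BTN2 call with ZnSO4 was lost without ZnSO4 replicates 1 or 2 or untreated replicates 1, 2 or 3 (-0.63 to -0.49, adjusted p = 0.0531 to 0.105). With CuSO4, 2 of 5 fell, where 16.6% of all genes did: UBI4 (-1.02 ± 0.16, adjusted p = 1.67e-04) and CUR1 (-0.55 ± 0.11, adjusted p = 0.0017). Of 21 general stress genes, the statin gave 4 higher and 3 lower, CuSO4 2 and 12, and ZnSO4 1 and 12, with medians of 0.12, -0.59 and -0.93. The shares of all genes, higher and lower, were 18% and 18.8% with the statin, 18% and 16.6% with CuSO4, and 8.81% and 7.78% with ZnSO4.

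Of 6 further Hsp90 cochaperones, PPT1, a phosphatase that docks on Hsp90, had the largest CuSO4 difference (1.47 ± 0.21, adjusted p = 8.87e-05), and CNS1 (0.63 ± 0.14, adjusted p = 0.00263) and TAH1 (0.52 ± 0.13, adjusted p = 0.00526) rose with it. PPT1 was lower in statin with CuSO4 than in CuSO4 (-1.26 ± 0.21, adjusted p = 3.61e-04). HCH1, an AHA1 relative, rose with the statin (0.53 ± 0.10, adjusted p = 6.24e-04). Of 5 genes of the ribosome and nascent chain group, 3 rose with CuSO4, as SSB1, SSB2 and 18% of all genes did. They were SSZ1 (0.84 ± 0.18, adjusted p = 0.0018) and ZUO1 (0.57 ± 0.16, adjusted p = 0.0141), the partners of Ssb on the ribosome, and EGD2 of the nascent polypeptide-associated complex (0.58 ± 0.19, adjusted p = 0.031). The ZUO1 call was lost without CuSO4 replicate 2 (0.47, adjusted p = 0.0648), and the EGD2 call without CuSO4 replicate 1 or untreated replicates 1 or 2 (0.35 to 0.59, adjusted p = 0.0641 to 0.167). Of 8 genes of the cytosolic chaperonin CCT, 3 rose with CuSO4 (CCT8, CCT7 and CCT2), where 18% of all genes did, and 2 fell with the statin (CCT7 and TCP1), where 18.8% did. With CuSO4 the CCT7 call was lost without CuSO4 replicate 1 or untreated replicate 2 (0.28 to 0.29, adjusted p = 0.0727 to 0.0748), and the CCT2 call without statin replicate 2, CuSO4 replicates 1, 2 or 3 or untreated replicates 1, 2 or 3 (0.29 to 0.35, adjusted p = 0.0504 to 0.116). With the statin the CCT7 call was lost without statin replicates 1 or 2 or untreated replicates 1 or 3 (-0.31 to -0.27, adjusted p = 0.0619 to 0.0995), and the TCP1 call without statin with CuSO4 replicate 3, statin with ZnSO4 replicates 2 or 3, statin replicate 1, CuSO4 replicates 1, 2 or 3, ZnSO4 replicate 2 or untreated replicates 1, 2 or 3 (-0.32 to -0.19, adjusted p = 0.0513 to 0.214). Prefoldin hands actin and tubulin to CCT, and 5 of its 6 genes were lower in statin with CuSO4 than in CuSO4, led by PAC10 (-0.67 ± 0.14, adjusted p = 0.00167), where 23.3% of all genes were. The YKE2 call was lost without statin with CuSO4 replicates 1 or 3, statin replicates 2 or 3, CuSO4 replicates 1 or 3, ZnSO4 replicates 1, 2 or 3 or untreated replicates 1, 2 or 3 (-0.36 to -0.24, adjusted p = 0.0502 to 0.219), and the GIM3 call without statin with CuSO4 replicates 1 or 3 or CuSO4 replicates 1 or 2 (-0.31 to -0.28, adjusted p = 0.117 to 0.148). The 3 HSP31 paralogs HSP32, HSP33 and SNO4, which are nearly identical and may share signal, were higher in that comparison, as were 21.1% of all genes. SNO4 was higher by 0.94 ± 0.25, adjusted p = 0.00697. The HSP33 call was lost without statin with CuSO4 replicate 1 or CuSO4 replicates 1 or 2 (0.35 to 0.58, adjusted p = 0.0856 to 0.182). Of 8 other J proteins and Hsp70 factors, JJJ3 rose with CuSO4 (0.88 ± 0.14, adjusted p = 1.94e-04) and with ZnSO4 (0.64 ± 0.14, adjusted p = 0.00522). Of 8 other mitochondrial chaperone and import genes tested, SSQ1, an Hsp70 of iron-sulfur cluster assembly, rose with the statin (0.40 ± 0.12, adjusted p = 0.0136) and fell with CuSO4 (-0.61 ± 0.12, adjusted p = 8.03e-04) and ZnSO4 (-0.47 ± 0.12, adjusted p = 0.0105). The SSQ1 call with the statin was lost without statin replicate 3 or untreated replicates 1 or 3 (0.33 to 0.36, adjusted p = 0.0545 to 0.0662), and that with ZnSO4 without ZnSO4 replicate 1 or untreated replicate 2 (-0.37 to -0.36, adjusted p = 0.0596 to 0.0611). PAM18, the J protein of the import motor, fell with the statin (-0.62 ± 0.15, adjusted p = 0.0037) and rose with CuSO4 (0.58 ± 0.15, adjusted p = 0.00593).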

How the data were processed

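RNA of 17 biological samples in 6 groups was hybridised on 23 arrays, 6 samples on a pair of arrays, each against one pooled reference with no dye swap. Per the labels, samples carried Cy3 and the pool Cy5. The deposited scanner files hold the spots' median intensity and local background in each channel, and the submitters' processing notes name Agilent Feature Extraction 10.5.1.1 as the software. The deposited value table holds log10 ratios, which equalled the scanner's log10 ratio turned to sample over reference within 0.000005 and had column medians of 0 to 0.00683.

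The median intensities were background-corrected (normexp, offset 50) and loess-normalized within arrays with limma 3.58.1 in R 4.3.3. Of the 12512 spots on an array 536 were controls. Both spots of a probe, then both arrays of a sample, were averaged. For 5606 of 6256 genes, at least 1 group had both spots well above background on all its arrays, and these were tested. Of the array's systematic names 5756 matched a RefSeq gene name and 500 did not. One limma model with 6 groups and 11 residual degrees of freedom gave all comparisons; 6 missing values among tested genes were left out of their fits, none of them in a member.

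Members and lists were chosen with earlier results of these data known. Values in every sample are given for the 4 called members of largest change in each comparison and for paralog pairs; of other lists at most the 3 largest called genes are named, with HSF1, MSN2 and MSN4 always. The comparison of CuSO4 with ZnSO4 was added after seeing the data. Samples are labelled as biological replicates, and the p-values set a difference against the spread between them. The 2 or 3 biological samples per group limit the precision. Replicate numbers were also scans, and deviations from group means of same-numbered samples correlated with a median r of 0.31 over 40 pairs (-0.09 to 0.69, 33 over 0.1), against -0.15 over 80 pairs of different number. The main fit had no block, and the fit with the number as a block is given for the members whose call it changes. Tested on simulated data for statin against untreated (5606 genes, 200 changed), the fit recovered 56.1%, 91% and 100% of changes of 0.5, 1 and 2 on the log2 scale. Alternatives were another background correction, normalization or filter, the deposited value table, 1 array per sample, only the groups compared, and each sample or the third scan left out.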

Additional observations from a re-analysis of the deposited data

Results flagged for a closer look

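The test of the difference between the effect of CuSO4 with the statin and its effect without it flagged 6 members. Of them 2 were higher and 4 lower, beside 8.12% and 10.3% of all genes, so members were flagged about as often as all genes. For each of the 6, the interaction is a log2 difference with limma's standard error. Those with a negative value were SSA3 (-2.07 ± 0.54, adjusted p = 0.013), SSB1 (-1.68 ± 0.39, adjusted p = 0.00676), SSB2 (-1.35 ± 0.35, adjusted p = 0.0128) and SSE1 (-0.77 ± 0.24, adjusted p = 0.0328). HSP26 (1.71 ± 0.57, adjusted p = 0.0493) and HSP31 (1.06 ± 0.31, adjusted p = 0.0258) were the members with a positive value. The HSP26 call was lost under 20 of 27 other settings, the HSP31 call under 10, the SSE1 call under 6, and the others under 1 each, the fit without the third scan.

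Among the other named genes, the same interaction was positive for UBI4, polyubiquitin (1.11 ± 0.23, adjusted p = 0.00287), for CTT1, the cytosolic catalase (1.35 ± 0.44, adjusted p = 0.0462), for GPH1, glycogen phosphorylase (1.27 ± 0.42, adjusted p = 0.0479), for MSN4 (0.71 ± 0.17, adjusted p = 0.00651) and for CUR1 (0.49 ± 0.16, adjusted p = 0.0459). It was negative for ALD3, an aldehyde dehydrogenase (-1.63 ± 0.41, adjusted p = 0.0105), PPT1 (-1.48 ± 0.30, adjusted p = 0.00292), CNS1 (-0.94 ± 0.20, adjusted p = 0.00319), BTN2 (-0.91 ± 0.24, adjusted p = 0.0131) and SSZ1 (-0.84 ± 0.25, adjusted p = 0.0284). The UBI4 call held under all 27 settings, while those of CTT1, CUR1, GPH1 and SSZ1 were lost under 17, 19, 19 and 9 of them. The interaction with ZnSO4 flagged MSN4 alone of the named genes (0.87 ± 0.18, adjusted p = 0.0279), a call lost under 9 settings.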

How the results depend on the processing

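Every call on a member kept its sign under all 27 alternatives (2646 of 2646 values). The number of members called is given for each setting that moved it by over 1.5 times. With the third scan left out, which leaves a pair of samples per group and 1 of statin with ZnSO4, assumed to vary like the others, it was 8 in place of 18 in statin against untreated, 3 in place of 8 in ZnSO4 against untreated, 0 in place of 4 in statin with CuSO4 against statin, 0 in place of 9 in statin with ZnSO4 against statin, 11 in place of 20 in statin with CuSO4 against CuSO4, 4 in place of 11 in statin with ZnSO4 against ZnSO4 and 2 in place of 6 in the interaction with CuSO4; such counts can include members not called with all scans. With only the groups compared in the fit, which leaves fewer samples, it was 0 in statin with CuSO4 against statin. With median centring it was 17 in place of 10 in CuSO4 against ZnSO4, and the cause was not tested. With the replicate block it was 8 in statin with CuSO4 against statin, 12 in the interaction with CuSO4 and 16 in CuSO4 against ZnSO4. In the other comparisons the block gave 21 in statin against untreated, 15 in CuSO4 against untreated, 11 in ZnSO4 against untreated, 13 in statin with ZnSO4 against statin, 22 in statin with CuSO4 against CuSO4, 16 in statin with ZnSO4 against ZnSO4 and 0 in the interaction with ZnSO4, and it ended 0 calls. Leaving out 1 sample gave 13 to 20 in statin against untreated, 9 to 15 in CuSO4 against untreated, 7 to 9 in ZnSO4 against untreated, 2 to 9 in statin with CuSO4 against statin, 2 to 12 in statin with ZnSO4 against statin, 14 to 21 in statin with CuSO4 against CuSO4, 7 to 15 in statin with ZnSO4 against ZnSO4, 3 to 6 in the interaction with CuSO4, 0 to 1 in the interaction with ZnSO4 and 6 to 13 in CuSO4 against ZnSO4. The 3 of the interaction came without statin with CuSO4 replicate 1, statin replicate 3, CuSO4 replicate 1 or untreated replicate 2, and the 7 of statin with ZnSO4 against ZnSO4 without statin with ZnSO4 replicate 3. Calls held under all 27 alternatives for 11 of 20 members in statin with CuSO4 against CuSO4, 8 of 18 in statin against untreated, 7 of 12 in CuSO4 against untreated, 3 of 8 in ZnSO4 against untreated, 3 of 11 in statin with ZnSO4 against ZnSO4, 4 of 10 in CuSO4 against ZnSO4, 0 of 9 in statin with ZnSO4 against statin, 0 of 4 in statin with CuSO4 against statin and 0 of 6 in the interaction with CuSO4. Within single scans, every called member kept its direction except AHA1 in statin with CuSO4 against CuSO4. Over members, 5407 values with 1 sample left out stayed on their side of the threshold, 149 lost a call and 54 gained one; under the other settings these were 3124, 99 and 77. All members were well above background on every array.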

Other observations

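Of the 21 general stress genes, 12 were higher in statin with CuSO4 than in CuSO4 and 0 were lower, beside 21.1% and 23.3% of all genes. In statin with ZnSO4 against statin, 12 were lower and 1 was higher, beside 10.3% and 11.7% of all genes. CTT1 rose when CuSO4 was added to the statin (3.47 ± 0.31, adjusted p = 1.07e-06). HAC1, whose product drives the unfolded protein response of the endoplasmic reticulum, was higher in statin with CuSO4 than in CuSO4 (1.14 ± 0.33, adjusted p = 0.0121), a call lost without statin with CuSO4 replicate 3 (0.85, adjusted p = 0.0718).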
